A study of Mus musculus with 6 samples.

Results

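Tendon identity was followed here through 4 genes: Scx, Mkx, Tnmd and Abi3bp. They were taken by name from the deposited expression table, which holds 49315 genes, and all 4 were found, each as 1 row. RNA came from embryonic fibroblasts of the mouse, a mixed mesenchymal population, isolated at E13.5 and grown for 2 days at passage 0. One group had 2 wild-type copies of Acvr1 (Acvr1+/+) and the other carried the R206H allele on 1 copy (Acvr1R206H/+), with 3 libraries each that the design text calls biological replicates. The protein made from Acvr1 is a cell surface kinase that receives bone morphogenetic protein (BMP) signals. Its R206H change is the usual cause of fibrodysplasia ossificans progressiva, in which muscle, tendon and ligament turn to bone. The labels do not say which part of the embryo was used, or whether a library came from 1 embryo or a pool.

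Tendon cells arise from progenitors that switch on Scx. Scleraxis, its product, is a basic helix-loop-helix factor that binds DNA as a dimer with broadly expressed E proteins. Mohawk, the product of Mkx, is a homeobox factor of the TALE class that is needed for tendon fibres to thicken and for their collagen genes to be expressed. Tenomodulin, encoded by Tnmd, is a membrane glycoprotein of more mature tendon cells, acts downstream of Scx and is among the most specific markers of the tissue. Abi3bp encodes a secreted matrix protein made by tendon and other connective tissue cells.

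Levels were TPM (transcripts per 1000000), a measure scaled to gene length, so levels of different genes can be set side by side. Such comparisons depend on the length used for each gene, which the sources do not give. Changes are differences in mean log2(TPM + 1), R206H minus wild type. They were tested with limma, two-sided, with Benjamini-Hochberg adjustment over the 14818 genes tested and a threshold of 0.05. That scale understates the change of weakly expressed genes. From the values, the libraries held an estimated 17484165 to 24571782 reads. On the first principal component (40.8% of the variance) the genotypes fell on opposite sides. On the second, wild-type library 1 lay at 34.1 and the other 5 libraries between -16.3 and 4.8. Fibroblast genes were abundant in every library, with summed TPM of 11 markers at 6441 to 7888 in wild type and 9700 to 12640 in R206H. Xist, the X-inactivation transcript, was at 89.5 to 110.4 TPM in libraries 1 and 3 of both genotypes and at 0 to 0.0117 in libraries 2, where Y-linked transcripts were present, so both genotypes had the same Xist pattern.

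In R206H fibroblasts Tnmd rose 2.56 times, while Scx stood at nearly the same mean level as in wild type. Mkx and Abi3bp had higher means in R206H, at 1.70 and 4.84 times wild type, but neither passed the threshold. As background for these calls, 2.04% of the genes tested passed in either direction, 1.26% as higher and 0.79% as lower in R206H. With voom on read counts rebuilt from TPM, which called 8.73% of the genes it tested, Tnmd passed (adjusted p = 0.0114) and Abi3bp, Mkx and Scx did not (adjusted p = 0.0588, 0.0858 and 0.893). The groups did not overlap, with R206H higher, in 17.9% of the genes tested. Among the 4 tendon genes this was so for Tnmd and Abi3bp.

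**Figure D1:**
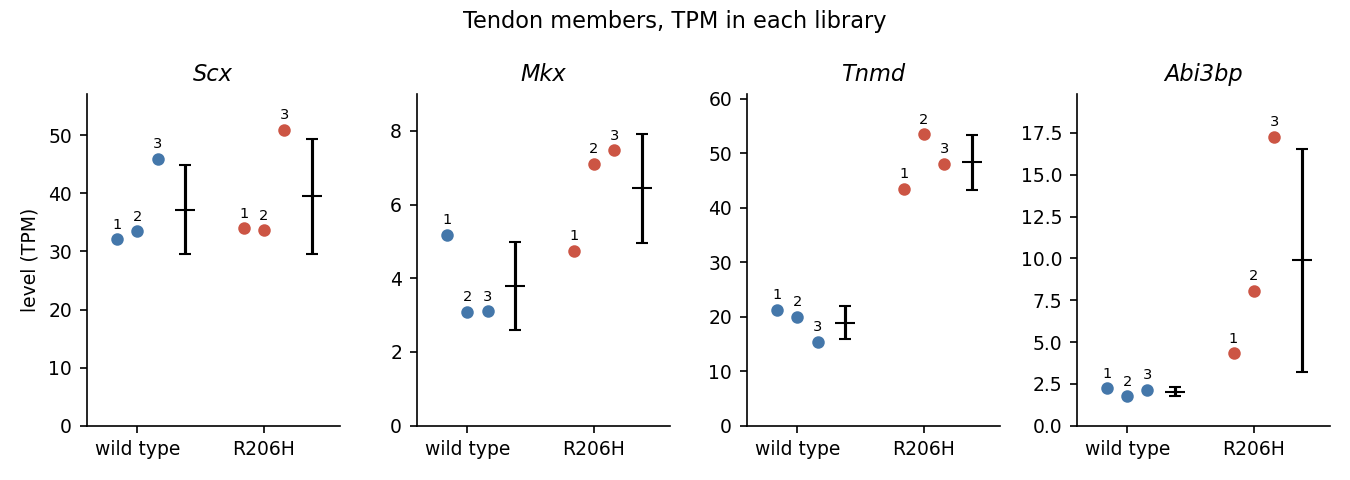
Level (TPM, axis from 0) of Scx, Mkx, Tnmd and Abi3bp in each library. Points are libraries with their replicate numbers, and the bar beside them is the mean with its SD (n = 3). The genotypes overlap for Scx and Mkx and do not for Tnmd and Abi3bp, and Abi3bp runs from 4.33 to 17.3 TPM among the R206H libraries.

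Scx (ENSMUSG00000034161) is a single locus of 2007 nt on chromosome 15, 76457452 to 76459458 on the plus strand (GENCODE release M21, GRCm38). Wild-type libraries 1, 2 and 3 had 32.1, 33.4 and 46 TPM, and R206H libraries 1, 2 and 3 had 34, 33.6 and 50.9. In each genotype the third library was the highest and the other two lay close together. The groups overlapped through wild-type library 3, which exceeded R206H libraries 1 and 2. The means were 37.2 ± 7.66 TPM in wild type and 39.5 ± 9.88 in R206H (SD, n = 3), a log2 change of 0.08 with a 95% interval of -0.38 to 0.54 (SE 0.196, limma adjusted p = 0.833). That interval sets how large a change in either direction these libraries could have missed. The sign turned with 1 library: without wild-type library 1 the value was -0.02 and without R206H library 3 it was -0.11. By exact permutation of the libraries (two-sided) p was 0.5, and 3 against 3 cannot go below 0.1.

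The whole of Scx lies inside an intron of Bop1, a ribosome biogenesis gene on the opposite strand (minus strand, 76452989 to 76477277), and the exons of the 2 genes share 0 nt. RNA depleted of ribosomal RNA also holds unspliced transcripts, and the strand setting of the counting is not given in the sources used here, so reads from a Bop1 intron and reads from Scx cannot be told apart. Bop1 was at 152.4, 162.3 and 164 TPM in wild-type libraries 1, 2 and 3 and at 143.4, 134.2 and 133 in R206H (log2 value -0.22, adjusted p = 0.0774). Within libraries the ratio of Scx to Bop1 was 0.211, 0.206 and 0.28 in wild type and 0.237, 0.251 and 0.383 in R206H. The ratios overlapped, as the Scx levels did, and the highest of each genotype was again library 3.

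Mkx (ENSMUSG00000061013, chromosome 18, 6934518 to 7004780, minus strand, 8 exon blocks) was expressed at a low level. Wild-type libraries 1, 2 and 3 had 5.18, 3.09 and 3.11 TPM, and R206H libraries 1, 2 and 3 had 4.75, 7.11 and 7.48. The groups overlapped through library 1 of each genotype, as wild-type library 1 exceeded R206H library 1. The log2 change was 0.64 (SE 0.229, 95% interval 0.10 to 1.18), with an unadjusted p of 0.0259 and a limma adjusted p of 0.141 that did not pass. At an unadjusted p under 0.05 stood 26.1% of all genes tested. These levels rest on 79 to 174 reads a library, estimated from the TPM and the gene length. Exons of Mkx share 201 nt with AC148004.2, a noncoding gene on the same strand, so part of the Mkx count depends on how such reads were assigned.

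Tnmd (ENSMUSG00000031250) lies on the X chromosome, 133850980 to 133865577 on the plus strand, with 7 exon blocks and 1 annotated transcript of 1353 nt. Wild-type libraries 1, 2 and 3 had 21.3, 20 and 15.4 TPM, and R206H libraries 1, 2 and 3 had 43.5, 53.5 and 48.1. All R206H libraries lay above all wild-type ones, and the spread within each genotype was small beside the gap. The means were 18.9 ± 3.08 and 48.4 ± 5.03 TPM (SD, n = 3), a log2 change of 1.32 (SE 0.133, 95% interval 1.00 to 1.63, limma adjusted p = 0.0272). Exact permutation of the libraries (two-sided) gave its lowest possible p, 0.1. An estimated 130 to 183 reads stood behind the wild-type values and 344 to 370 behind the R206H values.

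The size of the Tnmd difference varied little between fits, and its call depended on the libraries kept. Leaving out 1 library at a time gave ratios of 2.34 to 2.73. The adjusted p was 0.0331 without wild-type library 1 and 0.0188 without R206H library 1. It was 0.0939 and 0.116 without wild-type libraries 2 and 3 and 0.152 and 0.0664 without R206H libraries 2 and 3, so the call was lost in those 4 fits. As Tnmd is X-linked, it was also read by the Xist pattern of the libraries. The ratio was 2.49 in the Xist-expressing libraries 1 and 3 and 2.68 between the 2 libraries numbered 2. The second is 1 library against 1 and has no spread, and the ratios were not tested against each other.

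Abi3bp (ENSMUSG00000035258, chromosome 16, 56477878 to 56690135, plus strand, 59 exon blocks over 7416 nt) had the largest ratio and the widest spread. Wild-type libraries 1, 2 and 3 had 2.24, 1.75 and 2.14 TPM, and R206H libraries 1, 2 and 3 had 4.33, 8.07 and 17.3. All R206H libraries exceeded all wild-type ones, but they differed from each other far more than the wild-type libraries did, with an SD of 6.66 against 0.259. The log2 change was 1.66 (SE 0.408, 95% interval 0.70 to 2.62), and it did not pass (limma adjusted p = 0.0727). Leaving out R206H library 3 lowered the ratio from 4.84 to 3.04. Leaving out R206H library 1 raised it to 6.21, and the gene then passed (limma adjusted p = 0.0303). R206H libraries 1, 2 and 3 also stood in this order on the first principal component, at 7.2, 20.7 and 39.5. The summed level of 12 epithelial markers fell in the same order, at 174.6, 105.7 and 55.1 TPM, and its part in the Abi3bp values was not tested.

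The order of the 4 mean levels, which rests on the gene lengths used, differed between genotypes. In wild type it was Scx, Tnmd, Mkx and Abi3bp, at 37.2, 18.9, 3.8 and 2.04 TPM. Mkx exceeded Abi3bp in every wild-type library. Scx also exceeded Tnmd in all 3 wild-type libraries, with ratios of Tnmd to Scx of 0.664, 0.598 and 0.336. In R206H the means ran Tnmd 48.4, Scx 39.5, Abi3bp 9.89 and Mkx 6.45 TPM, with ratios of Tnmd to Scx of 1.28, 1.59 and 0.944. In R206H library 3 Scx was therefore still above Tnmd, and Mkx was still above Abi3bp in R206H library 1, so neither pair of neighbours is cleanly ordered there. The Tnmd to Scx ratios did not overlap between genotypes (exact two-sided permutation p = 0.1, the smallest possible, on log2 ratios). Set among the genes tested, the mean level of Tnmd exceeded that of 54.1% in wild type and 75.3% in R206H, and that of Scx 70% and 71.1%.

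**Figure D2:**
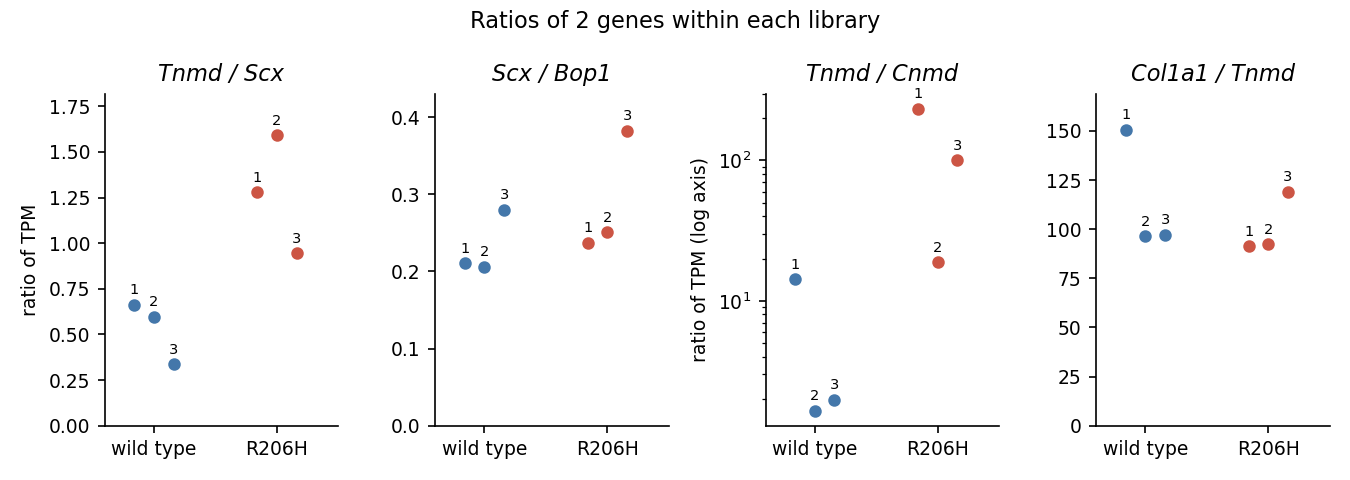
Ratios of TPM of 2 genes within each library, for Tnmd to Scx, Scx to Bop1, Tnmd to Cnmd (log axis) and Col1a1 to Tnmd; points are libraries with their replicate numbers. Tnmd to Scx and Tnmd to Cnmd do not overlap between genotypes, while Scx to Bop1 and Col1a1 to Tnmd do.

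The sequence just upstream of Tnmd is shown because Scx binds E-boxes, the motif CANNTG. Of the 4 tendon genes, 1 was matched in the RefSeq promoter table (GRCm38.p6), and the tendon gene with the largest called ratio after Aspn, Fmod, is set beside it. Each run is 222 bases on the plus strand, with E-boxes in capitals, and 28 bases lie between its last base and the RefSeq gene start. They cover chrX:133850758-133850979 for Tnmd and chr1:134037004-134037225 for Fmod.
Tnmd: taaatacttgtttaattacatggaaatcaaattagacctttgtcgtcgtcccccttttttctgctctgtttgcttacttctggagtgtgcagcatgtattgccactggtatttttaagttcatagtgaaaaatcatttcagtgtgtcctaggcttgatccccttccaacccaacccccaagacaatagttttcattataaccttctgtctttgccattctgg
Fmod: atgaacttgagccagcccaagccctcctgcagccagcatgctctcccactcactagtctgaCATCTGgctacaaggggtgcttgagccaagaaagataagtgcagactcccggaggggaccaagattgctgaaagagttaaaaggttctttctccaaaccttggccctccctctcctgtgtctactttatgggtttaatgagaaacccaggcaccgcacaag
The Tnmd window held no E-box on either strand, and the Fmod window held 1, CATCTG, starting 189 bases before the gene start. On the other strand that match reads CAGATG, which was also searched as a motif of its own. In the same window of 32544 RefSeq promoters, CANNTG was found in 62.4% and CAGATG in 13.2%. The SMAD motifs GTCTAGAC and GGCGCC, searched on both strands and found in 0.163% and 8.31% of promoters, were in neither window. The lack of a match says only that these letters are not in this stretch.

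The closest sequence relative of Tnmd is Cnmd, which encodes chondromodulin, a related membrane protein of cartilage. Cnmd was at 1.5, 12.1 and 7.85 TPM in wild-type libraries 1, 2 and 3 and at 0.186, 2.85 and 0.477 in R206H. The genotypes overlapped because wild-type library 1 was low, and the log2 value of -1.81 did not pass (SE 0.685, limma adjusted p = 0.158). The wild-type mean of Cnmd was 6.11 times that of R206H. This ratio was 3.99 when wild-type library 2 was left out and 21.6 when R206H library 2 was left out. Within libraries, Tnmd was 14.3, 1.65 and 1.97 times Cnmd in wild type and 234.3, 18.8 and 100.8 times in R206H. So the 2 genes stood further apart in every R206H library than in any wild-type one (exact two-sided permutation p = 0.1, the smallest possible). Tcf15, the closest relative of Scx, was at no more than 0.649 TPM in any library and was not tested. Among other relatives, the helix-loop-helix genes Hand1 and Hand2 rose with log2 changes of 1.46 (SE 0.156, limma adjusted p = 0.0272) and 0.67 (SE 0.102, limma adjusted p = 0.0454). Twist1, a further helix-loop-helix gene, had a value of 0.52 and Irx5, a TALE homeobox gene like Mkx, one of 0.61, and neither passed (limma adjusted p = 0.121 and 0.0819).

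Scleraxis works with E proteins, and Id proteins block such dimers by binding E proteins without binding DNA. Of 7 genes of this kind, 1 was higher, Id3, at 546.8 ± 57 against 322 ± 30.9 TPM (SD, n = 3), and 6 did not pass. Over all genes tested limma called 1.26% higher. Id1 had a log2 value of 0.46 (limma adjusted p = 0.0776). The E protein genes Tcf12, Tcf3 and Tcf4 had values of 0.23, 0.18 and 0.35 (limma adjusted p = 0.103, 0.141 and 0.167). All 7 values were positive, and in 6 of the 7 all R206H libraries exceeded all wild-type ones. Over all 14818 genes tested, 7949 values were positive and 17.9% lay apart in this way.

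Of 11 other regulators of tendon development tested with limma, none was higher, 1 was lower and 10 did not pass. Over all genes tested limma called 1.26% higher and 0.79% lower. An unadjusted p under 0.05 was reached by 5 of the 11, against 26.1% of all genes tested. With voom 1 was higher (Nfatc4) and 1 lower, against 8.73% of the genes it tested called in either direction. The median log2 change was 0.23, against 0.02 over all genes tested. The lower one was Tgif1, a TALE homeobox corepressor of transforming growth factor beta (TGF-beta) signalling, with a log2 change of -0.39 (SE 0.0697, limma adjusted p = 0.0476). Nfatc4, a calcium-regulated factor, and Egr2, a zinc finger factor that promotes tendon collagen expression, had values of 0.68 and 0.65 that did not pass (limma adjusted p = 0.0847 and 0.139). The fibroblast growth factor targets Etv4 and Etv5 had -0.22 and 0.23 (limma adjusted p = 0.147 and 0.19).

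Of 26 genes of the tendon matrix listed, 23 were tested, and 8 were higher in R206H with limma (1.26% of all genes tested). With voom 13 were higher, where 8.73% of all genes it tested were called in either direction. None of the 23 was lower with either tool, and 14 had an unadjusted limma p under 0.05 (26.1% of all genes tested). The 23 had a median log2 change of 0.61, against 0.02 over all genes tested. The 11 fibroblast markers had a median of 0.67, and Col1a1, Col1a2, Col3a1 and Dcn are in both lists. Of these 11, 0 passed with limma and 6 were higher with voom. All R206H libraries exceeded all wild-type ones in 14 of the 23 matrix genes and in 8 of the 11 fibroblast markers. Over all genes tested this share was 17.9%. A rise of this size was therefore not particular to the tendon matrix list. Fmod, a proteoglycan that governs collagen fibril growth in tendon, rose from 7.12 ± 1.94 to 44 ± 12 TPM (SD, n = 3), with 8.98, 7.29 and 5.1 TPM in wild-type libraries and 34.3, 40.2 and 57.4 in R206H. Tnmd stood above Fmod in every wild-type library, at 2.37, 2.74 and 3.03 times its level. In R206H it stood at 1.27, 1.33 and 0.838 times, without overlap (exact two-sided permutation of log2 ratios, p = 0.1, its floor). The proteoglycan genes Aspn, Ogn and Bgn had log2 changes of 2.58, 1.48 and 0.51. Col6a1, of the pericellular collagen VI, had 1.06, and the genes of fibril-regulating collagens Col5a1, Col5a2 and Col11a1 had 0.89, 0.61 and 0.57.

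Of the 23 matrix genes, 20 had a positive and 3 a negative log2 value, against 7949 positive of all 14818 genes tested. Comp and Thbs4, thrombospondins of tendon and cartilage, had log2 values of -1.45 and 0.14 with wide intervals of -3.09 to 0.18 and -0.87 to 1.15, and Tppp3, a tendon sheath marker, had -0.14 with an interval of -0.43 to 0.15. Kera, a proteoglycan gene of cornea and tendon, was at no more than 0.18 TPM in any library. Comp, Thbs4, Tppp3 and Kera were picked out after their values were seen, to show members that did not pass or were not tested. The count of 9 called genes in the 2 lists, 8 higher and 1 lower, was 12 without wild-type library 1, 11 without R206H library 1 and 0 without any 1 of the other 4 libraries.

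**Figure D3:**
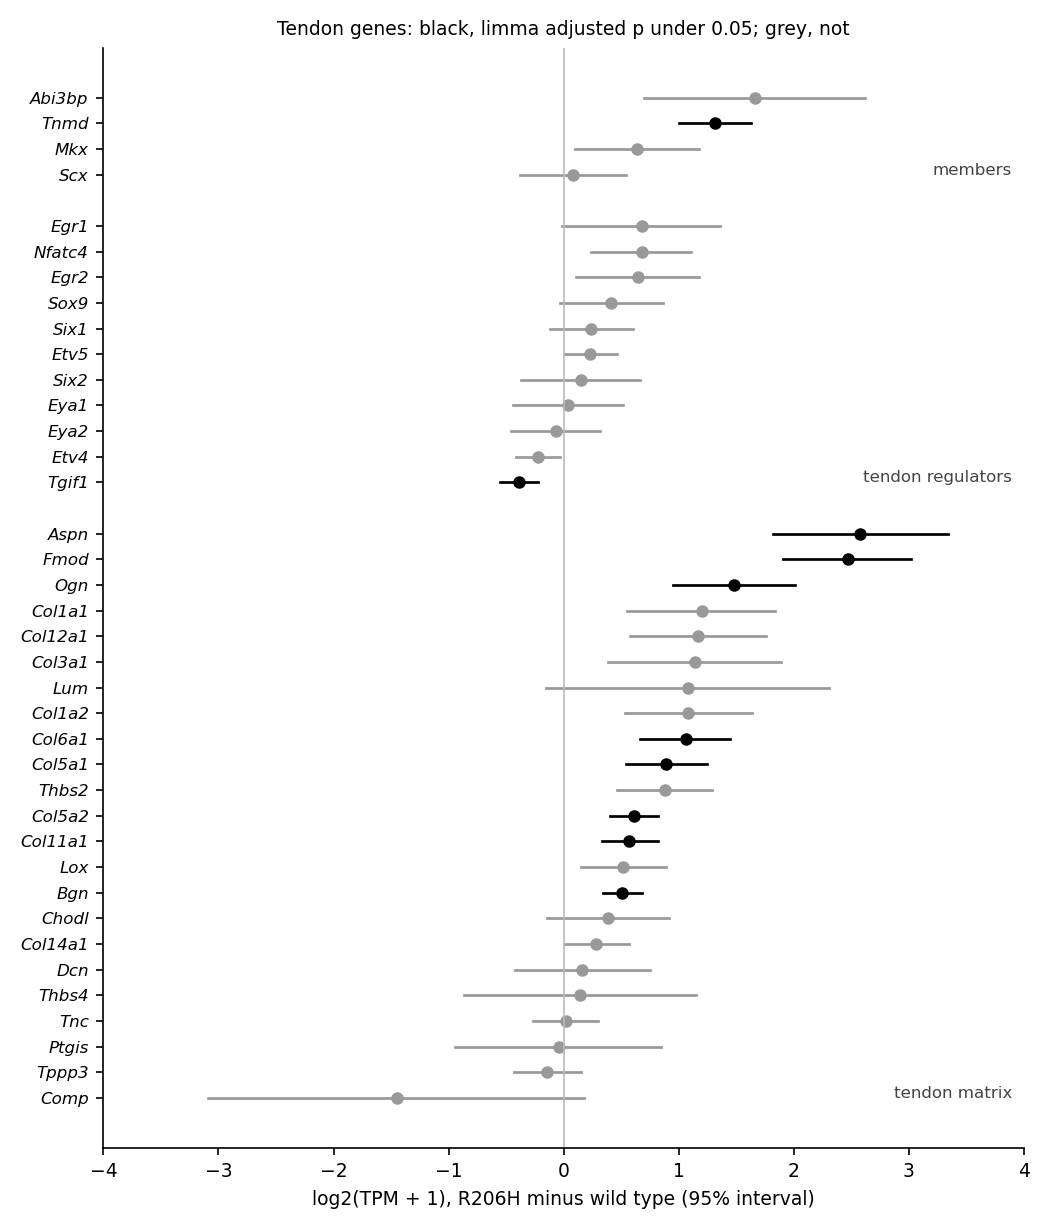
Change in log2(TPM + 1), R206H minus wild type, with 95% intervals from limma, for the 4 tendon genes, 11 other regulators and 23 tendon matrix genes. Black marks an adjusted p under 0.05. Of the regulators only Tgif1 is black and to the left, and the 8 black matrix genes all lie to the right.

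Fibrillar collagen I is the bulk of tendon and also of fibroblast matrix. For Col1a1 the log2 value was 1.20 (limma adjusted p = 0.0655, short of the threshold), beside 1.32 for Tnmd. The ratio of Col1a1 to Tnmd overlapped between genotypes, at 150.7, 96.5 and 97.2 in wild-type libraries and 91.4, 92.4 and 119 in R206H. Set against Vim, a general mesenchymal gene, Tnmd did not overlap, with ratios of 0.00466 to 0.00758 in wild type and 0.0135 to 0.0177 in R206H. Vim had a log2 value of -0.03 and was the 1 negative of 11 fibroblast markers. The other 10 were positive, and the median of the 11 was 0.67, so Vim does not stand for the list. Set against Prrx1, a marker with a value of 0.41, Tnmd ratios were 0.1318 to 0.1975 in wild type and 0.2685 to 0.349 in R206H.

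Of 17 signalling genes tested that act on tendon progenitors, 4 were higher with limma, against 1.26% of all genes tested, and 13 did not pass. At an unadjusted p under 0.05 stood 8 (26.1% of all genes tested). Voom called 5 higher, the same 4 and Tgfb2, and 1 lower, Smad3, against 8.73% of the genes it tested in either direction. Tgfb3, the gene of a TGF-beta ligand, rose from 144.3 ± 13.6 to 242.4 ± 23 TPM (SD, n = 3). Tgfb2 did not pass at a log2 value of 0.57 (limma adjusted p = 0.0644, with 0.0186 to 0.375 over its alternatives, 4 of which passed). Bmp4, Id3 and Smad6, a ligand and 2 response genes of the BMP pathway, had log2 changes of 1.08, 0.76 and 0.54. Fgf4 and Fgf8, growth factor genes that induce Scx in the embryo, were listed at 0 in all libraries.

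The patterns most like each tendon gene over the 6 libraries were ranked by Pearson correlation of log2(TPM + 1) among the genes tested, as a description. Libraries of 1 genotype share that genotype, so any gene that differs between genotypes resembles another. For Tnmd the 5 closest were Slc43a1, Dip2c, Serpinb1a, Scube1 and Anxa6, with r of 0.9996 down to 0.9946. Serpinb1a, a protease inhibitor gene, rose with a log2 change of 1.53, and Anxa6, a calcium-dependent membrane-binding protein gene, with 0.38. For Mkx they were Creb1, Tulp3, Mbd5, Irf7 and Il1r1, and for Abi3bp Hdac4, Mxd4, Aacs, Magi1 and Pcdhac2. For Scx they were Phf2os1, Epn3, Exosc4, Mks1 and Snapc5, with log2 values of 0.01 to 0.17, none of which passed. Between the tendon genes themselves, r was 0.85 for Tnmd with Mkx, 0.85 for Tnmd with Abi3bp and 0.87 for Mkx with Abi3bp, against 0.02 for Scx with Tnmd, 0.13 for Scx with Mkx and 0.50 for Scx with Abi3bp, each over 6 libraries.

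Some markers of other cells moved with genotype beside Tnmd, and their part in the tendon values was not tested. In bulk RNA, fewer cells of a type and less RNA per cell cannot be told apart. Of 10 epithelial markers tested, 2 were lower, Cldn3 and Epcam (0.79% of all genes tested), and 8 did not pass. All 10 had a negative value and an unadjusted p under 0.05, against 6869 negative of all 14818 genes tested and 26.1% at that p. In 9 all R206H libraries lay below all wild-type ones (15.0% of all genes tested). Voom called 5 lower, against 8.73% of the genes it tested in either direction. The summed TPM over 12 epithelial markers was 224.9 to 435.4 in wild type and 55.1 to 174.6 in R206H. Of 5 neural crest or glial markers, 4 were tested. With limma 2 of the 4 were lower, Sox10 and Foxd3 (0.79% of all genes tested), and with voom all 4 (8.73% in either direction). The sums over the 5 were 37.3 to 46.6 TPM in wild type and 13.8 to 23.4 in R206H. The neuronal list had 2 higher of 4 tested, Tubb3 and Prph (1.26% of all genes tested), and the mesothelial list 1 lower of 4, Msln (0.79%). The mesothelial list as a whole did not follow Msln, with 2 positive and 2 negative values and a median of 0.06. None of 10 cartilage, 7 bone, 10 skeletal muscle, 4 endothelial or 3 macrophage markers tested passed with limma. An unadjusted p under 0.05 was reached by 3, 6, 0, 1 and 0 of them, against 26.1% of all genes tested. In the same order, median log2 values were -0.82, -1.07, -0.17, -0.38 and 0.25. All R206H libraries lay below all wild-type ones for 0, 4, 0, 2 and 0 of them (15.0% of all genes tested). They lay above for 0, 1, 0, 0 and 1 (17.9%). Of these markers voom called 1, the bone marker Ibsp, as lower. Muscle sums were 469.7 to 652.8 TPM in wild type and 410.4 to 735.1 in R206H. No list member of these cell types was at 0 in all libraries. Levels within these lists were mixed. Ptprc of blood cells was under 1 TPM in every library, while the macrophage genes Cd68 and Csf1r ran from 10.7 to 16.1 and from 1.3 to 3.74. Pax7 of muscle stem cells was under 1 TPM in every library, while Myog and Myod1 of differentiating muscle ran from 15.6 to 33.6 and from 7.65 to 18.7. Pecam1 of endothelium was under 1 TPM outside wild-type library 1, while Kdr and Cdh5 ran from 4.15 to 9.09 and from 1.42 to 11.2. The share of TPM from the mitochondrial genome was 4.16% to 4.57% in wild-type and 3.43% to 3.85% in R206H libraries.

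**Figure D4:**
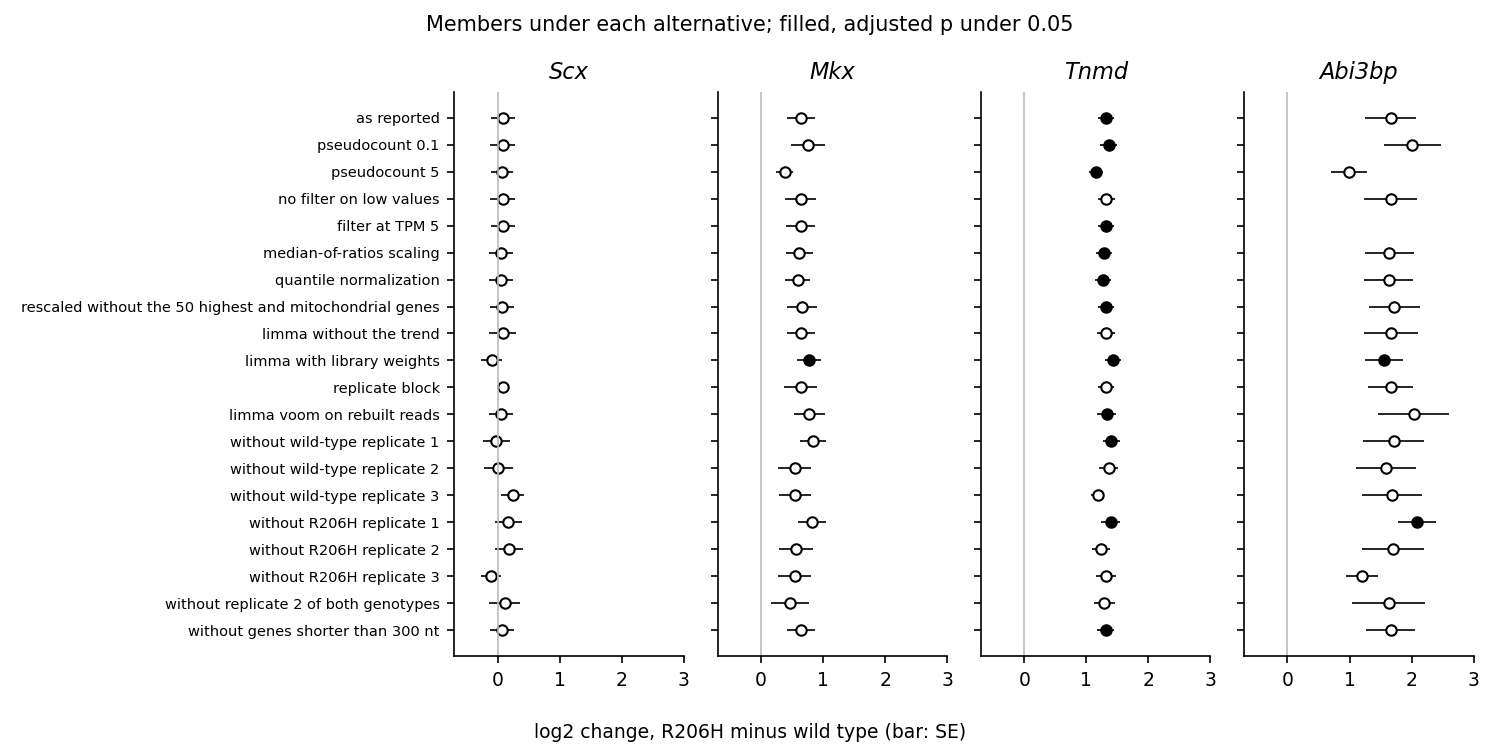
Log2 change of each tendon gene (R206H minus wild type, bar 1 SE) as reported and under each alternative processing or with libraries left out; filled points have an adjusted p under 0.05. Tnmd lies between 1.16 and 1.43 in every fit, and Scx lies on both sides of 0. Abi3bp has no value with the filter at TPM 5.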

How the data were processed

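The authors deposited 1 table of TPM for Ensembl genes in 6 libraries, 3 per genotype, and each library sums to 1000000. Per the labels' protocols, libraries were made by ribosomal RNA depletion and sequenced as 150 bp read pairs. Per the submitters' processing notes, the builds were mm10 and GRCm38 and the tools DESeq2, Subread, featureCounts, STAR and Trimmomatic, without role or version. The annotation release, gene lengths and strandedness are likewise not given in the sources.

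The limma fit (version 3.58.1, R 4.3.3) took log2(TPM + 1) of genes reaching TPM 1 in 3 or more libraries, with genotype as its sole term and an eBayes variance trend. In a single run on simulated data, with the same spread setting for every gene, it missed most of the smallest changes. In that run the share of unchanged genes among those called was above the average rate that the adjustment aims at. Their median length was far below that of the genes tested. A single run does not give an average rate. Single differences had an exact permutation test. Reads were estimated with GENCODE M21 exon-union lengths, which gave whole reads, within 0.05 reads, for 91.2% to 91.4% of non-zero values under 100 reads; 259 of 49315 genes had no length. Nothing states that libraries came from separate embryos, so p-values measure the spread between these libraries.

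The tendon genes, lists and tests were chosen with earlier results of these data known. Named were the 4 tendon genes, every list gene past the threshold, list genes with the smallest p up to 5 a list, both closest relatives and the 5 most similar genes each, skipping unnamed models and pseudogenes. Col1a1, Vim, Bop1, Fgf4, Fgf8 and the cell type markers were named for ratios or counts. Smad3 and Ibsp, called by voom and not past the limma threshold as fitted here, were named after their values were seen. Alternatives were other pseudocounts, filters, scalings and variance models, voom on rebuilt reads, a replicate block and each library left out. Added after seeing the data were leaving out replicate 2 of both genotypes and leaving out genes shorter than 300 nt. Python 3.11.15, pandas 2.3.3, scipy 1.17.1 and matplotlib 3.10.9 were used.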

Additional observations from a re-analysis of the deposited data

How the results depend on the processing

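Tnmd kept its direction in all 19 alternatives, at 1.16 to 1.43, and fell short of the threshold in 8. These were no filter (1.32, limma adjusted p = 0.0735), limma without the trend (1.32, adjusted p = 0.0501), replicate 2 of both genotypes left out (1.29, adjusted p = 0.365), the replicate block and 4 of the 6 fits with 1 library left out (range over 6: 1.18 to 1.40). Mkx passed with library weights alone (0.78, adjusted p = 0.0421; range over alternatives 0.0421 to 0.523; 0.54 to 0.84 with 1 library left out). Abi3bp passed with library weights (1.55, adjusted p = 0.0248) and without R206H library 1, with 1.20 to 2.08 when 1 library was left out; the filter at TPM 5 removed it. Scx turned to -0.10 with library weights and ran from -0.11 to 0.24 with 1 library left out, never past the threshold. Against 303 genes called, pseudocount 0.1 gave 129, no filter 2, the filter at TPM 5 587, quantile normalization 200, no trend 27, library weights 1906, voom on rebuilt reads 1291, no genes under 300 nt 648, leaving out 1 library 0 to 729, and leaving out replicate 2 of both genotypes 0 (1848 at an unadjusted p under 0.05). Against 9 tendon regulator and matrix genes called, no filter gave 0, no trend 1, library weights 16, voom 15, leaving out 1 library 0 to 12, and leaving out replicate 2 of both 0 (14 at an unadjusted limma p under 0.05).

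Same-numbered libraries of the 2 genotypes shared the Xist pattern as well as a number, and they are not stated to be pairs. Their deviations correlated at 0.02, 0.06 and -0.03, and 2 of 6 libraries correlated best with their own number. With the replicate block, limma called 0 genes (3301 at an unadjusted p under 0.05; voom without the block 1291) and 0 tendon list genes (21 at that p). Tnmd kept 1.32 (adjusted p = 0.0989), Abi3bp 1.66, Mkx 0.64 and Scx 0.08. Among 28 other named genes none reversed in 530 values, while 134 values lost a call and 9 gained one. All 15 called among them lost the call in 7 to 14 of 19 alternatives. Mkx rests on 79 to 174 estimated reads a library. For these changes the cause was not tested.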
